A study of Arabidopsis thaliana with 28 samples.

Results

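The transcripts described here come from 9 genes with roles in the guard cell, the cell that opens and closes the stomatal pore. They are the anion channel genes SLAC1 (AT1G12480), SLAH3 (AT5G24030) and ALMT12 (AT4G17970), the potassium channel genes KAT1 (AT5G46240), KAT2 (AT4G18290) and GORK (AT5G37500), the regulators HT1 (AT1G62400) and MYB60 (AT1G08810), and the plasma membrane proton pump gene AHA1 (AT2G18960). They were chosen by name, with earlier results of these data known. All 9 were found among the 23681 loci of the deposited expression table. All 9 also passed the filter on low values. RNA of whole Arabidopsis thaliana seedlings was sequenced in 28 libraries that fall into 10 groups, in a study of where abscisic acid (ABA) is perceived and how that bears on transpiration. There were 4 constitutively active (CA) groups, lines expressing altered forms of the ABA receptors PYR1 (PYR1 CA), PYL4 (PYL4 CA), PYL5 (PYL5 CA) or PYL6 (PYL6 CA), each with 3 libraries and each given the mock solution. The aba2-1 mutant, which carries a defect in the ABA biosynthesis gene ABA2, was given mock solution, 10 nM ABA or 50 nM ABA, with 3 libraries in each group. The wild-type accession Col-0 was given mock solution with 2 libraries, 10 nM ABA with 2 libraries, or 50 nM ABA with 3 libraries. All seedlings grew for 7 days on plates and then spent 3 h in liquid medium, while another label puts their age at 10 days after germination. The promoter that drives the CA receptors, the line background they were made in and the number of seedlings behind a library are not given in the sources used here.

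A stoma closes when its guard cells lose anions and potassium and, with them, water. SLAC1 and SLAH3 encode slow-type anion channels and ALMT12 a rapid-type one, and anion release through them depolarises the plasma membrane, so that potassium leaves through the outward channel GORK. Opening runs the other way: proton pumps such as AHA1 hyperpolarise the membrane and potassium enters through KAT1 and KAT2. ABA acts on the channels in large part through protein phosphorylation, and HT1 is a kinase that holds back closure in response to carbon dioxide, while MYB60 is a transcription factor of guard cells linked to stomatal opening. RNA of whole seedlings does not show which cells a transcript came from, so the values are not those of guard cells alone. Fewer cells of a type and less RNA per cell also cannot be told apart in it.

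Levels are normalised read counts as deposited, and levels of different genes were compared only after division by coding length. On that scale the medians over the 28 libraries were 4906 normalised reads per kb of coding sequence for AHA1, 588 for SLAH3, 295 for MYB60 and 207 for KAT1. The other 5 genes were less abundant, with medians of 84.1 per kb for KAT2, 63.4 for HT1, 45.1 for ALMT12, 40.3 for SLAC1 and 32.9 for GORK. The lower genes rested on few reads: between 16 and 115 reads per library for SLAC1, 20 and 197 for ALMT12, 17 and 147 for HT1, and 36 and 165 for GORK. AHA1 was read 2898 to 25112 times per library.

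The loci lie at chr1:4257268-4259300 for SLAC1, chr5:8118317-8122914 for SLAH3, chr4:9975365-9978023 for ALMT12, chr5:18743510-18747406 for KAT1, chr4:10114794-10118652 for KAT2, chr5:14889245-14895233 for GORK, chr1:23089610-23091732 for HT1, chr1:2819065-2820478 for MYB60 and chr2:8221514-8227622 for AHA1, in the RefSeq annotation of TAIR10.1. SLAC1 overlaps 2 genes of the opposite strand, AT1G12470 over 125 bases and a long non-coding RNA gene over 775 bases. The library kit was stranded, but how strand was used in counting is not given, so reads of the opposite strand may be part of the SLAC1 values. Reads may also be split among close relatives: AHA1 and AHA2 share 89.2% of aligned coding bases, KAT1 and KAT2 share 82.3%, and ALMT12 and ALMT14 share 77.4%. AHA1, with identical runs of up to 59 bases against AHA2, is therefore less certain than SLAC1 and SLAH3 are against each other, where identity was 64.3%.

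The 250 bases before the annotated start are shown for 4 genes whose values separate in the comparisons that follow: ALMT12 and SLAC1, which rose with 50 nM ABA in aba2-1, HT1, which fell there, and KAT1, which came closest to passing the test of a difference between the genotypes in their response. Capitals mark ACGTG, the core of the element bound by ABA-responsive bZIP factors, or CACGT, the same motif read on the other strand. Sequences are from the RefSeq genome TAIR10.1 and are written on the coding strand. They lie at chr4:9975115-9975364 (plus strand) for ALMT12, chr1:4259301-4259550 (minus strand) for SLAC1, chr1:23089360-23089609 (plus strand) for HT1 and chr5:18747407-18747656 (minus strand) for KAT1.
ALMT12: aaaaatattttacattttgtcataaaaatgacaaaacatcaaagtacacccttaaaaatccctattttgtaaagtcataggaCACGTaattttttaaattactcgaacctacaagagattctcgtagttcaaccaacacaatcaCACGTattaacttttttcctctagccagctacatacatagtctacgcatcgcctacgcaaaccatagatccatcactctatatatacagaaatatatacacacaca
SLAC1: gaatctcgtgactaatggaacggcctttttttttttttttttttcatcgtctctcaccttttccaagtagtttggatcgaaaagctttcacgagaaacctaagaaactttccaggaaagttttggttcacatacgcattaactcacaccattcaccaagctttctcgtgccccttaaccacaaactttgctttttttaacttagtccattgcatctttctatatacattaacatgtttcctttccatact
HT1: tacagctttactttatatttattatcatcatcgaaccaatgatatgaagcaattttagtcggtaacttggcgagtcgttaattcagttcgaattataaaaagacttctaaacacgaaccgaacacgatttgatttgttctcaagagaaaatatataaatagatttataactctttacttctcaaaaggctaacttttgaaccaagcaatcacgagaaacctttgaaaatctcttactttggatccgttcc
KAT1: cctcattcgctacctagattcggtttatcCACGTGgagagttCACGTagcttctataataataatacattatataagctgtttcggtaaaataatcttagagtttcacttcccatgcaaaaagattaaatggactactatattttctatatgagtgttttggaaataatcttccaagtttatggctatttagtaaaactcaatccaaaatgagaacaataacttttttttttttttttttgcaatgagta
ALMT12 held 2 matches, KAT1 held 3, and SLAC1 and HT1 held none in this window. In KAT1 the run CACGTG reads as the motif on both strands and was counted on each. Over all members, 4 of 9 held at least 1 match, the others being KAT2 with 2 and SLAH3 with 1, against 22.9% of 27438 promoters of the same length. Of the 4 genes called in aba2-1 at 50 nM ABA against mock, ALMT12 held the motif in this window, and SLAC1, HT1 and AHA1 did not.

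The libraries held between 11.99 and 30.94 M reads. Replicates spread most in aba2-1 50 nM ABA, with a median SD over genes of 0.326 (log2), followed by PYL5 CA with 0.298. In the remaining 8 groups this median lay between 0.084 and 0.167. A single 18S ribosomal RNA gene took 35.1% of the reads in aba2-1 10 nM ABA replicate 3, against 0.89% to 6.49% in the other 27 libraries, so that 1 read there counted as 4.41 normalised reads. The ABA-inducible gene RAB18 averaged 1121 ± 337 normalised reads in aba2-1 50 nM ABA and 16.2 ± 2.41 in aba2-1 mock (SD, n = 3 each), and 409.6 ± 117 in Col-0 50 nM ABA (SD, n = 3) against 24.2 ± 11.1 in Col-0 mock (SD, n = 2). The neighbouring genes MRD1 and HEI10, picked after their values were seen, set the aba2-1 libraries apart from Col-0, with MRD1 between 796.3 and 859.5 in aba2-1 mock and at 11.6 and 21.7 in Col-0 mock. Of the Col-0 libraries with ABA, MRD1 lay between those levels in 10 nM replicate 2 (177), 50 nM replicate 1 (153.9) and 50 nM replicate 2 (380.2), and HEI10 was raised in the same 3 libraries. The tests were repeated without those libraries, and separately without 3 libraries that stood apart. These were aba2-1 50 nM ABA replicate 2 and PYL5 CA replicate 2, which lay farthest from the rest of the 2 groups of widest spread (median absolute log2 deviation from the group of 0.458 and 0.378), and aba2-1 10 nM ABA replicate 3, for its ribosomal RNA. Another library of each wide group deviated nearly as much, aba2-1 50 nM ABA replicate 3 by 0.392 and PYL5 CA replicate 3 by 0.34, and these were left out only 1 at a time. MRD1 was between 713.2 and 898.6 in the 12 CA libraries, at the aba2-1 level.

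**Figure D1:**
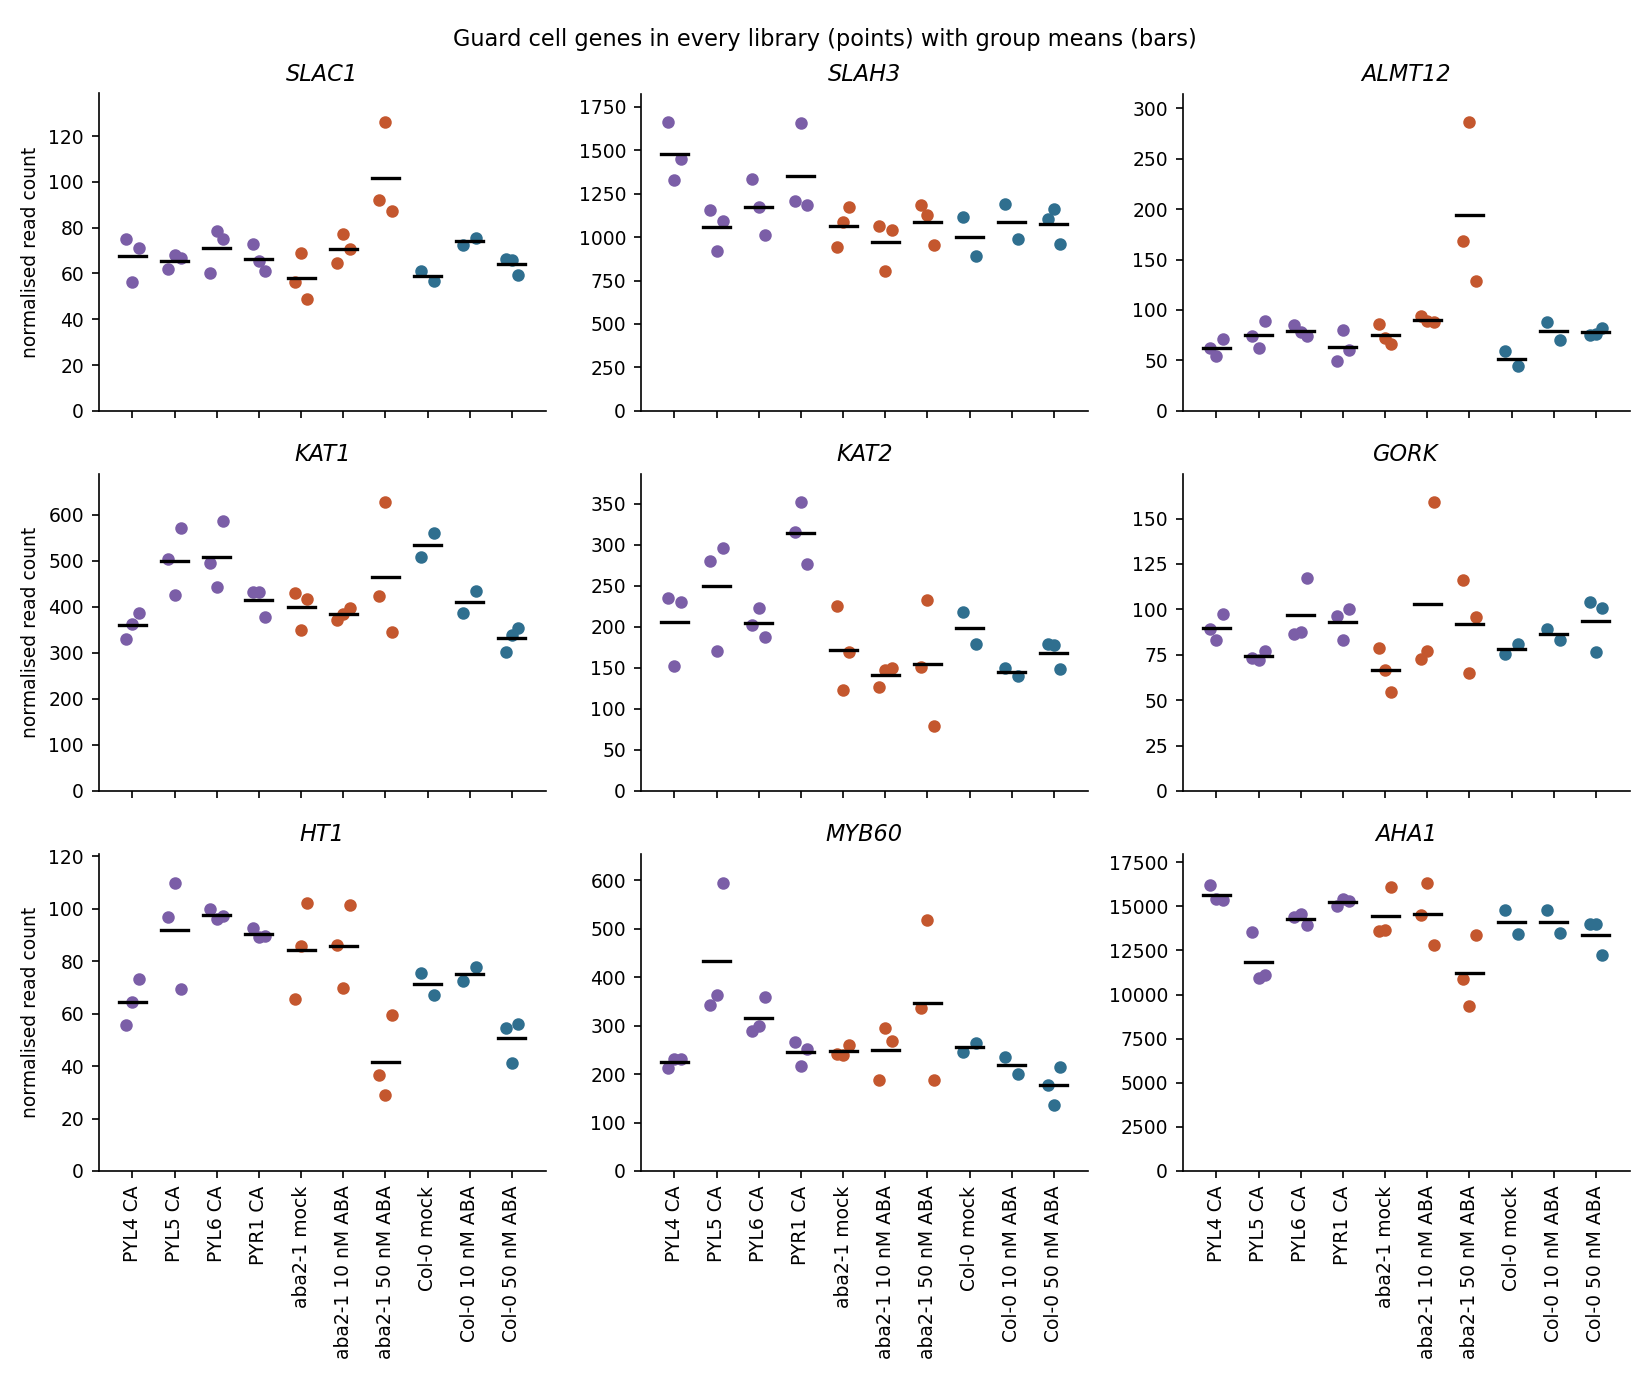
Normalised read count of each of the 9 genes (vertical axis, starting at 0) in every library (points) of the 10 groups, with group means as bars. SLAC1 and ALMT12 stand highest in aba2-1 50 nM ABA, with means of 101.9 and 194.2, and HT1 stands lowest there, with a mean of 41.6, and the points of that group are widely spread for most genes.

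In aba2-1 seedlings 50 nM ABA moved 4 of the 9 genes past an adjusted p of 0.05 (limma, Benjamini-Hochberg over 21023 genes). SLAC1 and ALMT12 rose, and HT1 and AHA1 fell. Of all genes tested, 24.8% were called in this comparison, 12.7% as higher and 12.1% as lower. In aba2-1 50 nM ABA the libraries of replicates 1, 2 and 3 stood far apart from each other, and replicate 2 was the highest of its group for SLAC1, ALMT12, KAT1, KAT2 and MYB60 and the lowest for HT1, AHA1 and GORK.

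ALMT12, the rapid-type anion channel gene, had 168, 286 and 128.5 normalised reads in aba2-1 50 nM ABA, against 86.2, 72.4 and 65.8 in aba2-1 mock. Every 50 nM library lay above every mock library. The log2 difference was 1.29 ± 0.222 (SE), a fold of 2.45, with an adjusted p of 0.00025 (limma). No single library decided the call: leaving out each of the 6 in turn gave log2 differences between 0.97 and 1.55. The call was lost when the model held only these 2 groups and so their own wide spread, with an adjusted p of 0.083.

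SLAC1, the slow-type anion channel gene, had 92.1, 126 and 87.4 normalised reads in aba2-1 50 nM ABA, against 56.1, 68.8 and 48.8 in aba2-1 mock. The groups did not overlap. The log2 difference was 0.80 ± 0.163 (SE), a fold of 1.74, with an adjusted p of 0.0014 (limma), and it stayed between 0.64 and 0.93 without any one of the libraries. Adjusted p was 0.15 with only these 2 groups in the model and 0.08 when each group had its own weight for its spread. SLAH3, the other slow-type channel gene and by far the most abundant of the 3, had 1186, 1129 and 953.5 in aba2-1 50 nM ABA, against 943.5, 1086 and 1171 in aba2-1 mock. Its groups overlapped, and its log2 difference was 0.03 ± 0.153 (SE), with an adjusted p of 0.90.

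HT1, the kinase that restrains closure, had 36.7, 28.9 and 59.3 normalised reads in aba2-1 50 nM ABA, against 65.4, 85.7 and 102.1 in aba2-1 mock. The highest 50 nM library lay just under the lowest mock library. The log2 difference was -1.04 ± 0.22 (SE), with an adjusted p of 0.0019 (limma), and it ranged from -1.32 to -0.82 when each library was left out in turn. With only these 2 groups in the model the adjusted p was 0.16. MYB60, the guard cell transcription factor, had 336.9, 517.6 and 187.1 in aba2-1 50 nM ABA, against 240.8, 240.2 and 260.9 in aba2-1 mock. Its 3 mock values were nearly alike, while the 50 nM libraries lay on both sides of them. The log2 difference of MYB60 was 0.37 ± 0.254 (SE), with an adjusted p of 0.28. Without aba2-1 50 nM ABA replicate 3, the library with 187.1, it was 0.76 with an adjusted p of 0.0088, in a fit that called 44.1% of all genes, and without replicate 2 it was 0.023 with an adjusted p of 0.97.

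None of the potassium channel genes passed the test in this comparison. KAT1, an inward channel gene, had 423.9, 626.5 and 344.5 normalised reads in aba2-1 50 nM ABA, against 429.7, 348.8 and 417.5 in aba2-1 mock. KAT2, its close relative, had 151, 233.2 and 79.1 in aba2-1 50 nM ABA, against 225.2, 123.1 and 169 in aba2-1 mock. Both overlapped between the groups, with log2 differences of 0.18 ± 0.159 (SE, adjusted p 0.40) for KAT1 and -0.25 ± 0.275 (SE, adjusted p 0.52) for KAT2. GORK, the outward channel gene, had 116, 64.7 and 95.8 in aba2-1 50 nM ABA, against 78.9, 66.4 and 54.5 in aba2-1 mock. Its log2 difference was 0.44 ± 0.234 (SE), with an adjusted p of 0.16, and without the 3 libraries that stood apart it was 0.67 with an adjusted p of 0.011, where 14.5% of all genes were called.

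AHA1, the proton pump gene, had 10905, 9362 and 13354 normalised reads in aba2-1 50 nM ABA, against 13590, 13679 and 16106 in aba2-1 mock. The groups did not overlap, but the highest 50 nM library came close to the lowest mock library. The log2 difference was -0.38 ± 0.125 (SE), with an adjusted p of 0.032 (limma). This was the least steady of the 4 calls, kept in 3 of 6 fits that left out 1 library: the adjusted p was 0.05 after rounding, and still called, without aba2-1 mock replicate 2, 0.14 without aba2-1 mock replicate 3, 0.072 without aba2-1 50 nM ABA replicate 1, 0.22 without replicate 2 of that group, 0.12 without the 3 libraries that stood apart, 0.16 with a weight for each group's spread and 0.31 with only these 2 groups in the model. AHA2, its nearest relative, also fell, to 7023 ± 846 in aba2-1 50 nM ABA against 12452 ± 3579 in aba2-1 mock (SD, n = 3 each), with a log2 difference of -0.80 and an adjusted p of 0.01.

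Summed levels of markers of other cell types differed widely among the aba2-1 50 nM ABA libraries. A sum gives most weight to the most abundant genes of its list, so the median log2 difference over each list is given beside it. The summed level of 5 epidermis markers was 26686, 37185 and 22461 normalised reads in aba2-1 50 nM ABA, against 18644, 19823 and 22754 in aba2-1 mock. The summed level of 5 mesophyll markers was 402306, 253197 and 564658 in aba2-1 50 nM ABA, against 498396, 552086 and 528400 in aba2-1 mock. Their median log2 difference was -0.663. In the epidermis list PDF1 (1.01 ± 0.276, adjusted p 0.012) and CER6 (0.51 ± 0.126, adjusted p 0.0063) rose, and the median log2 difference over the 5 markers was 0.075. The summed level of 8 root markers was 2723, 4587 and 2077 in aba2-1 50 nM ABA, against 2149, 2384 and 2423 in aba2-1 mock. Of these 8 markers 1 rose and 0 fell, and their median log2 difference was -0.051. Within the 50 nM group, replicate 2 had the highest epidermis and root sums and the lowest mesophyll sum. The 5 markers of mature guard cells outside the 9 genes summed to between 20959 and 24404 in aba2-1 50 nM ABA and to between 17816 and 21978 in aba2-1 mock. TGG1 weighed most in this sum, with a median of 9264 per kb over the 28 libraries, against 1518 for GC1. None of these markers was at 0. In limma 0 of the 5 rose and 1 fell, GC1, and their median log2 difference was 0.21. The part of these marker differences in the values of the 9 genes was not tested.

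Across the concentrations in aba2-1, SLAC1 averaged 57.9 in mock (48.8 to 68.8), 70.8 in 10 nM ABA (64.7 to 77) and 101.9 in 50 nM ABA (87.4 to 126), with n = 3 each. ALMT12 averaged 74.8 ± 10.4 in mock, 90.5 ± 3.3 in 10 nM ABA and 194.2 ± 81.95 in 50 nM ABA (SD, n = 3 each). HT1 averaged 84.4 ± 18.4 in mock, 85.9 ± 15.8 in 10 nM ABA and 41.6 ± 15.8 in 50 nM ABA. In all 3 genes the 10 nM mean lay nearer to mock than to 50 nM. At 10 nM against mock 0 of the 9 genes passed the test in limma, edgeR or DESeq2. Of all genes, 0.975% were called in limma. The member with the smallest p was GORK. It had 72.7, 77 and 158.9 normalised reads in aba2-1 10 nM ABA against 78.9, 66.4 and 54.5 in aba2-1 mock. The 158.9 stands for 36 reads in the library rich in ribosomal RNA. Its log2 difference was 0.54 (adjusted p 0.53), and 0.18 (adjusted p 1.0) without that library.

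Between 50 nM and 10 nM in aba2-1 the same 4 genes as against mock were called, 2 higher and 2 lower, against 11.6% of all genes (6.08% higher and 5.47% lower), while edgeR called 2 and DESeq2 3, and the comparisons share the 50 nM libraries. HT1 fell by 1.07 ± 0.22 on the log2 scale (SE, adjusted p 0.0045, limma) and ALMT12 rose by 1.01 ± 0.222 (SE, adjusted p 0.0075). The calls of SLAC1 (0.50 ± 0.163, adjusted p 0.047) and AHA1 (-0.38 ± 0.125, adjusted p 0.049) lay at the threshold and were kept in 5 and 7 of 17 alternatives. SLAC1 kept its call only without aba2-1 50 nM ABA replicate 3 among the 6 libraries left out in turn, with adjusted p up to 0.35 otherwise, and AHA1 only without replicate 3 of either group, with adjusted p up to 0.33. ALMT12 lost it without aba2-1 50 nM ABA replicate 2 alone (0.69, adjusted p 0.071), and HT1 kept it in all 6. Without aba2-1 50 nM ABA replicate 3, KAT1 (0.42, adjusted p 0.032) and MYB60 (0.76, adjusted p 0.01) passed as well, in a fit that called 39.1% of all genes. Without the 3 libraries that stood apart none of the 4 was called, with adjusted p of 0.086 for ALMT12, 0.09 for HT1, 0.32 for SLAC1 and 0.12 for AHA1.

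In Col-0 seedlings 0 of the 9 genes passed the test at 50 nM ABA against mock in limma, 0 in edgeR and 1 in DESeq2. Of all genes, 1.01% were called in limma. KAT1 came closest: it had 300.8, 338.9 and 354.5 normalised reads in Col-0 50 nM ABA, against 508.2 and 560.1 in Col-0 mock. All 3 values with ABA lay well below both mock values. The log2 difference was -0.69 ± 0.177 (SE), with an adjusted p of 0.062 (limma), 0.017 in DESeq2, 0.0066 with only these groups in the model and 0.0044 without the 3 libraries that stood apart, none of which is a Col-0 library. The share of all genes called was 2.16%, 4.42% and 3.02% in these 3 fits. It was -0.59 with an adjusted p of 0.87 without the Col-0 libraries with raised MRD1, which leaves a single 50 nM library that is assumed to vary like the other groups.

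The other genes in Col-0 had smaller or less certain differences. ALMT12 had 75.4, 76.4 and 82.4 normalised reads in Col-0 50 nM ABA, against 58.9 and 44.3 in Col-0 mock, a log2 difference of 0.60 ± 0.248 (SE, adjusted p 0.37). HT1 had 54.6, 41.3 and 56 in Col-0 50 nM ABA, against 75.4 and 67 in Col-0 mock, a log2 difference of -0.49 ± 0.246 (SE, adjusted p 0.56). MYB60 had 177.7, 137 and 215 in Col-0 50 nM ABA, against 246.4 and 264 in Col-0 mock, a log2 difference of -0.55 ± 0.284 (SE, adjusted p 0.59). Without the Col-0 libraries with raised MRD1 the differences were 0.68 for ALMT12, -0.34 for HT1 and -0.245 for MYB60, with an adjusted p of 1.0 each. With KAT1 and KAT2, 5 of the 9 genes had groups that did not overlap, 1 higher and 4 lower. With only 2 mock libraries 34.6% of all genes did so, 17.8% higher and 16.8% lower. SLAC1 had 66.5, 65.9 and 59.5 in Col-0 50 nM ABA, against 60.9 and 56.6 in Col-0 mock, and overlapped.

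At 10 nM ABA in Col-0, 0 of the 9 genes passed the test against mock in limma, edgeR or DESeq2. Of all genes, 0.0285% were called in limma. KAT1 had 387.2 and 435.1 normalised reads in Col-0 10 nM ABA, against 508.2 and 560.1 in Col-0 mock, and so lay between mock and 50 nM. Without the library with raised MRD1, which leaves a single 10 nM library, 0 of the 9 passed, and the log2 difference of KAT1 was -0.29 (adjusted p 1.0). With 2 libraries in each group, 6 of the 9 genes did not overlap (3 higher and 3 lower), against 47.6% of all genes (23.6% higher and 24.0% lower). ALMT12 had 88.5 and 70.2 in Col-0 10 nM ABA, against 58.9 and 44.3 in Col-0 mock. Between 50 nM and 10 nM 0 of the 9 passed in any of the 3 tools, and 0.0% of all genes were called in limma.

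**Figure D2:**
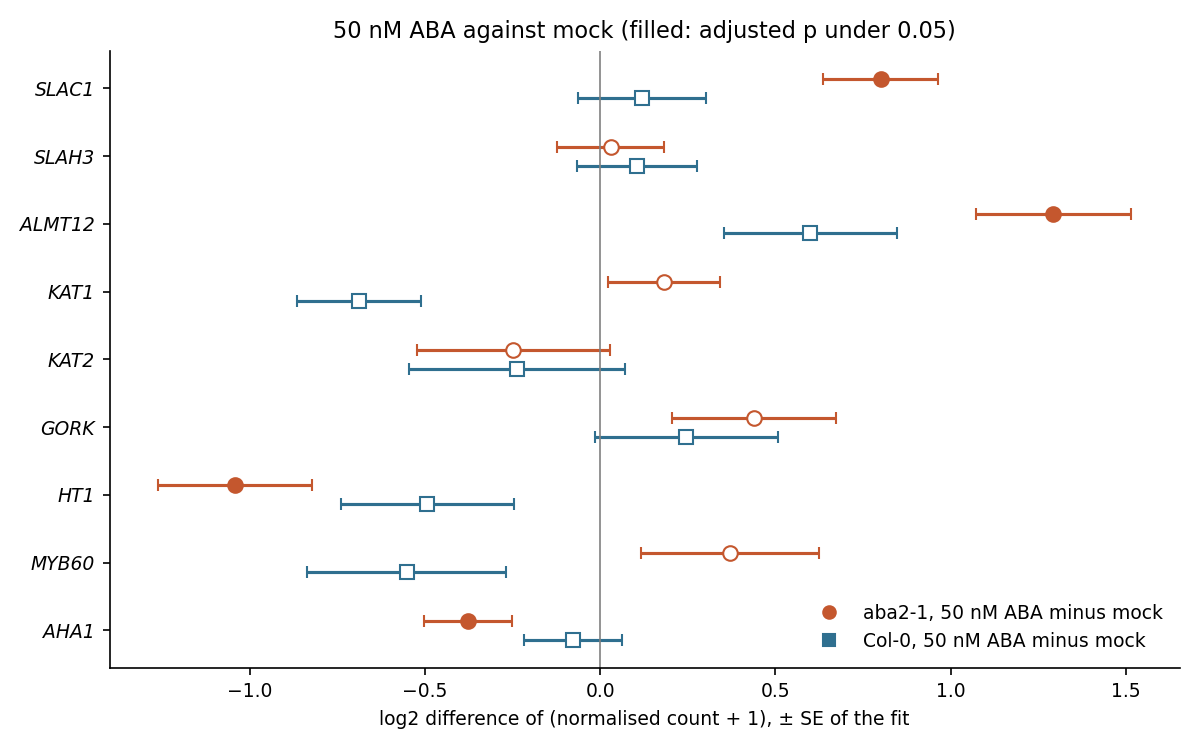
Difference between 50 nM ABA and mock on the log2 scale (horizontal axis, with the SE of the fit) for each gene in aba2-1 (circles, upper of each pair) and in Col-0 (squares). Filled symbols passed an adjusted p of 0.05, and SLAC1, ALMT12, HT1 and AHA1 in aba2-1 are the filled ones; KAT1 (0.18 in aba2-1 and -0.69 in Col-0) and MYB60 (0.37 in aba2-1 and -0.55 in Col-0) lie on opposite sides of 0.

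The response to 50 nM ABA was then set against itself in the 2 genotypes. No member passed the test of the difference between responses in limma, while 1 passed in edgeR and 1 in DESeq2. Of all genes, 2.05% were called in limma. The gene that the other tools called was KAT1: the response in aba2-1 minus that in Col-0 was 0.87 ± 0.238 on the log2 scale (SE), with an adjusted p of 0.057 in limma, 0.043 in edgeR and 0.017 in DESeq2. Without the Col-0 libraries with raised MRD1 it was 0.77, with an adjusted p of 0.50. For MYB60 it was 0.92 ± 0.381 (SE, adjusted p 0.21), for ALMT12 0.69 ± 0.332 (SE, adjusted p 0.27) and for SLAC1 0.68 ± 0.244 (SE, adjusted p 0.15). These 4 genes were called without aba2-1 50 nM ABA replicate 3, with adjusted p of 0.0056 for KAT1, 0.012 for MYB60, 0.041 for SLAC1 and 0.042 for ALMT12, and 15.9% of all genes were called in that fit. For HT1 the difference between responses was -0.55 ± 0.33 (SE, adjusted p 0.38), so a difference between the genotypes was not shown. Without the Col-0 libraries with raised MRD1 these differences were 0.615 for MYB60, 0.615 for ALMT12, 0.78 for SLAC1 and -0.705 for HT1, with adjusted p between 0.53 and 0.78.

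Set side by side at 50 nM, aba2-1 was higher than Col-0 in 4 of the 9 genes, against 10.6% of all genes called as higher (21.1% in either direction), and edgeR and DESeq2 called 4 each. ALMT12 had the largest difference, with 168, 286 and 128.5 normalised reads in aba2-1 50 nM ABA against 75.4, 76.4 and 82.4 in Col-0 50 nM ABA, a log2 difference of 1.22 ± 0.222 (SE, adjusted p 0.00066, limma). SLAC1 was higher by 0.65 ± 0.163 (SE, adjusted p 0.0084), and for both anion channel genes the groups did not overlap. MYB60 (0.88 ± 0.254, adjusted p 0.019) and KAT1 (0.45 ± 0.159, adjusted p 0.048) were also called, with overlapping groups. Without aba2-1 50 nM ABA replicate 2 the adjusted p was 0.067 for SLAC1, 0.16 for MYB60 and 0.38 for KAT1, and only ALMT12 of the 4 kept its call. Without the 3 libraries that stood apart, of which that replicate is one, SLAC1 (adjusted p 0.052), MYB60 (0.14) and KAT1 (0.27) were lost too. Without the Col-0 libraries with raised MRD1 none of the 4 was called, with adjusted p of 0.099 for ALMT12, 0.16 for SLAC1, 0.50 for MYB60 and 0.53 for KAT1; the log2 differences were 1.15 for ALMT12, 0.75 for SLAC1, 0.57 for MYB60 and 0.34 for KAT1. MYB60 also lost its call without Col-0 50 nM ABA replicate 1 (adjusted p 0.05 after rounding) or replicate 2 (0.11). KAT1 kept its call only without aba2-1 50 nM ABA replicate 3 among the 6 libraries, and AHA1 (-0.40, adjusted p 0.014) and HT1 (-0.61, adjusted p 0.027) passed there as well, with 38.8% of all genes called.

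The genotypes were also compared without ABA. In aba2-1 mock against Col-0 mock 0 of the 9 genes passed the test in limma, edgeR or DESeq2. Of all genes, 0.59% were called in limma. KAT1 had 429.7, 348.8 and 417.5 normalised reads in aba2-1 mock, against 508.2 and 560.1 in Col-0 mock, a log2 difference of -0.43 ± 0.177 (SE, adjusted p 0.48). ALMT12 had 86.2, 72.4 and 65.8 in aba2-1 mock, against 58.9 and 44.3 in Col-0 mock, a log2 difference of 0.53 ± 0.248 (SE, adjusted p 0.60). The groups did not overlap for either gene, which held for 2 of the 9 genes and 31.8% of all genes.

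The CA receptor lines, all without ABA, were compared with aba2-1 mock and with Col-0 mock. The row MCCA-NOS, which carries no locus, had between 8531 and 26804 normalised reads in the 12 CA libraries and 0 in the aba2-1 mock and Col-0 mock libraries. RAB18 was between 28.2 and 103.5 in the CA libraries, against 16.2 ± 2.41 in aba2-1 mock (SD, n = 3). Against aba2-1 mock 0 of the 9 genes passed the test in limma, edgeR or DESeq2 in any of the 4 lines. The share of all genes called in limma was 2.48% in PYL4 CA, 0.157% in PYL5 CA, 0.119% in PYL6 CA and 1.15% in PYR1 CA.

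The largest differences from aba2-1 mock fell on different genes in the 4 lines. KAT2 had 315.4, 351.9 and 277 normalised reads in PYR1 CA, against 225.2, 123.1 and 169 in aba2-1 mock. All 3 PYR1 CA values lay above the mock values, with a log2 difference of 0.90 ± 0.275 (SE, adjusted p 0.11), and the adjusted p was 0.024 without the 3 libraries that stood apart, none of which is in these groups, with 4.4% of all genes called. MYB60 had 341.6, 363.1 and 595.5 in PYL5 CA, against 240.8, 240.2 and 260.9 in aba2-1 mock, a log2 difference of 0.76 ± 0.254 (SE, adjusted p 0.20). The groups did not overlap, and without the 3 libraries, of which PYL5 CA replicate 2 is one, MYB60 passed with 0.87 and an adjusted p of 0.018, as did KAT1 (0.43, adjusted p 0.022) and KAT2 (0.78, adjusted p 0.027). In that fit 4210 of the 21023 genes were called, against 33 with all libraries. Replicate 3 of PYL5 CA, with 595.5 MYB60 reads, had a mesophyll marker sum of 306418, against 415466 and 660015 in the other PYL5 CA libraries, and the part of that in the MYB60 value was not tested.

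SLAH3 had 1661, 1331 and 1452 normalised reads in PYL4 CA, against 943.5, 1086 and 1171 in aba2-1 mock and 1114 and 893 in Col-0 mock. Every PYL4 CA library lay above every mock library of both genotypes. The log2 difference was 0.47 ± 0.153 (SE, adjusted p 0.12) from aba2-1 mock and 0.56 ± 0.171 (SE, adjusted p 0.10) from Col-0 mock, and the difference from Col-0 mock passed without the 3 libraries that stood apart (adjusted p 0.047), with 5.4% of all genes called. GORK lay above aba2-1 mock on the log2 scale by 0.54 ± 0.234 (SE) in PYL6 CA and 0.49 ± 0.234 in PYR1 CA. In PYL4 CA it lay 0.44 ± 0.234 above, and it did not pass in any of these 3 lines. The 3 differences share the aba2-1 mock libraries, and aba2-1 mock had the lowest GORK mean of the 10 groups (66.6). SLAC1 stayed within 0.19 to 0.30 of aba2-1 mock in the 4 lines and ALMT12 within -0.26 to 0.09, with overlapping groups throughout. At 50 nM ABA in aba2-1 the same genes stood at 0.80 and 1.29, and these comparisons share the aba2-1 mock libraries.

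**Figure D3:**
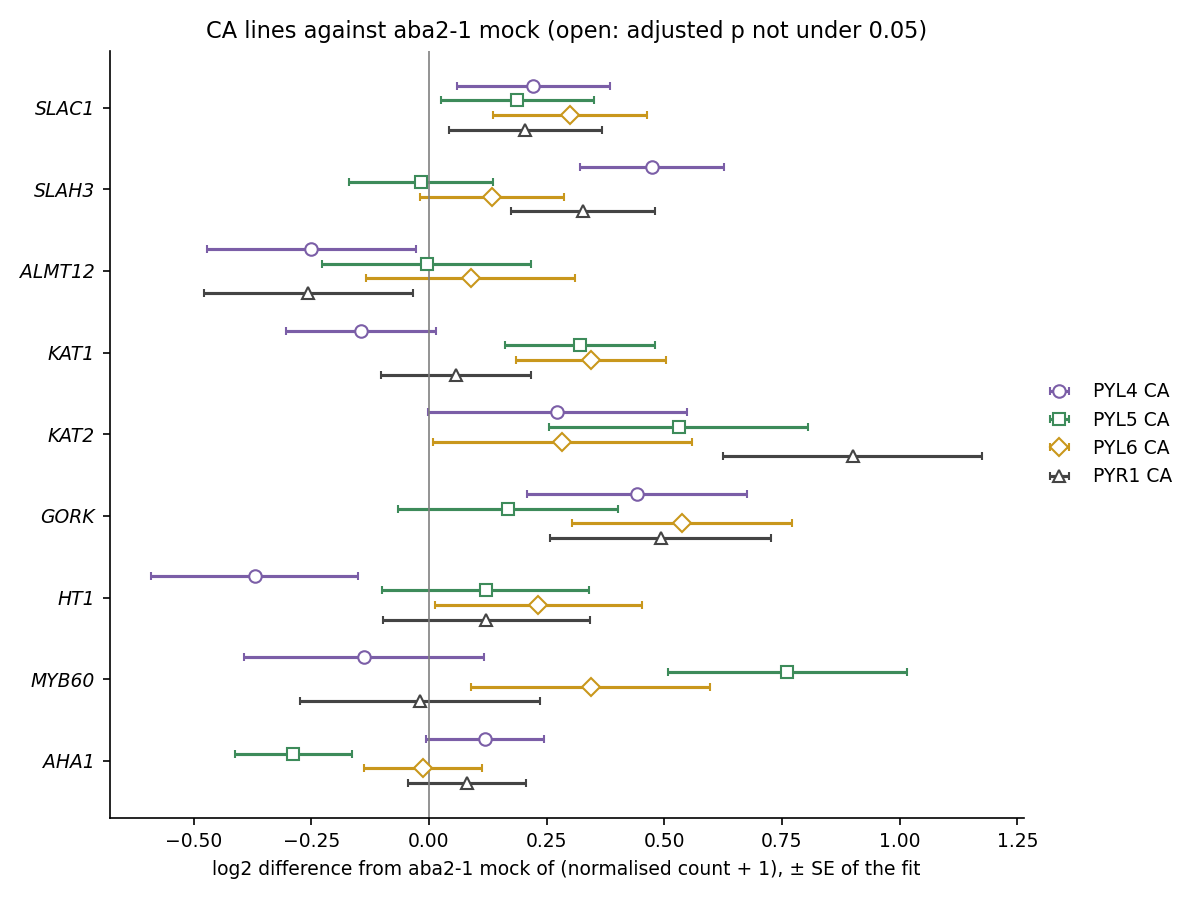
Difference between each CA line and aba2-1 mock on the log2 scale (horizontal axis, with the SE of the fit) for the 9 genes. All symbols are open because no adjusted p was under 0.05; KAT2 in PYR1 CA (0.90), MYB60 in PYL5 CA (0.76) and SLAH3 in PYL4 CA (0.47) lie farthest from 0 relative to their SE.

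Against Col-0 mock 0 of the 9 genes passed the limma or edgeR test in any CA line, and in DESeq2 1 passed in PYL4 CA and 0 in the other lines. The share of all genes called in limma was 1.44% for PYL4 CA, 1.59% for PYL5 CA, 0.157% for PYL6 CA and 2.81% for PYR1 CA. KAT1 had 330.9, 361.7 and 386.9 normalised reads in PYL4 CA, against 508.2 and 560.1 in Col-0 mock, a log2 difference of -0.57 ± 0.177 (SE, adjusted p 0.12). The groups did not overlap, and the adjusted p was 0.013 without the 3 libraries that stood apart. A test of any difference among the 4 CA lines called 0 of the 9 genes in limma or edgeR and 2 in DESeq2. Of all genes, 3.36% were called in limma. The genes that DESeq2 called were MYB60 (adjusted p 0.016) and AHA1 (adjusted p 0.046), with 8.74% of all genes called. MYB60 averaged 433.4 ± 141 in PYL5 CA, 315.5 ± 38.2 in PYL6 CA, 244.8 ± 24.6 in PYR1 CA and 224.7 ± 11.3 in PYL4 CA (SD, n = 3 each), with an adjusted p of 0.11 in limma.

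The groups were ordered by their mean for each gene, and overlap of libraries was read between neighbours in that order. Overlap of neighbours does not mean that groups farther apart overlap. SLAC1 and ALMT12 were highest in aba2-1 50 nM ABA, and for both no library of the next group reached that level, while every other pair of neighbours in the order overlapped. KAT1 ran from 534.2 in Col-0 mock through 507.9 in PYL6 CA and 499.8 in PYL5 CA to 331.4 in Col-0 50 nM ABA, with overlap at every step. KAT2 ran from 314.8 in PYR1 CA to 141.4 in aba2-1 10 nM ABA, HT1 from 97.7 in PYL6 CA to 41.6 in aba2-1 50 nM ABA, and SLAH3 from 1481 in PYL4 CA to 969.3 in aba2-1 10 nM ABA, again with overlap between all neighbours. MYB60 ran from 433.4 in PYL5 CA to 176.6 in Col-0 50 nM ABA, with 1 gap, between PYL6 CA (315.5) and Col-0 mock (255.2). GORK ran from 102.9 in aba2-1 10 nM ABA to 66.6 in aba2-1 mock, also with 1 gap, between Col-0 10 nM ABA (86.4) and Col-0 mock (78.2). AHA1 had the smallest ratio of highest to lowest group mean, 1.4, from 15660 in PYL4 CA to 11207 in aba2-1 50 nM ABA. Its neighbours all overlapped. For every gene but GORK the libraries of the highest group lay above those of the lowest, groups picked by these same values.

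Relatives of the channels and pumps, taken from lists drawn up by family, were read beside the members. The counts in these and the following lists stand against 24.8% of all genes called in aba2-1 50 nM ABA against mock, 12.7% higher and 12.1% lower. In aba2-1 50 nM ABA against mock both SLAC1 relatives with a test fell, with log2 differences of -1.69 ± 0.372 for SLAH1 (SE, adjusted p 0.0028) and -1.53 ± 0.232 for SLAH2 (SE, adjusted p 6.5e-05). SLAH2, a nitrate channel gene of the root, averaged 36.4 ± 14.5 in aba2-1 50 nM ABA and 100.6 ± 5.33 in aba2-1 mock (SD, n = 3 each), while SLAC1 rose. Of the ALMT relatives 1 of 8 tested rose, ALMT1, the root malate channel gene, with a log2 difference of 0.76 ± 0.251 (SE, adjusted p 0.031). ALMT12 was only the fifth of 10 ALMT genes by median level per kb, at 45.1 against 256.5 for the vacuolar channel gene ALMT9.

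Of the Shaker potassium channel relatives 1 of 4 tested rose and 1 fell. The risen gene was AKT2 (0.94 ± 0.286, adjusted p 0.022), a channel gene of the phloem, and the fallen one was SKOR (-1.67 ± 0.321, adjusted p 0.00086), the outward channel gene of the root stele and the nearest relative of GORK. Of the proton pump relatives 0 of 8 tested rose and 2 fell, AHA2 and AHA3 (-0.39 ± 0.125, adjusted p 0.027). In Col-0 50 nM ABA against mock none of the relatives in these 4 lists passed in limma, where 1.01% of all genes were called. ALMT2, ALMT7, ALMT8, ALMT11 and AHA6 were not analysed here.

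**Figure D4:**
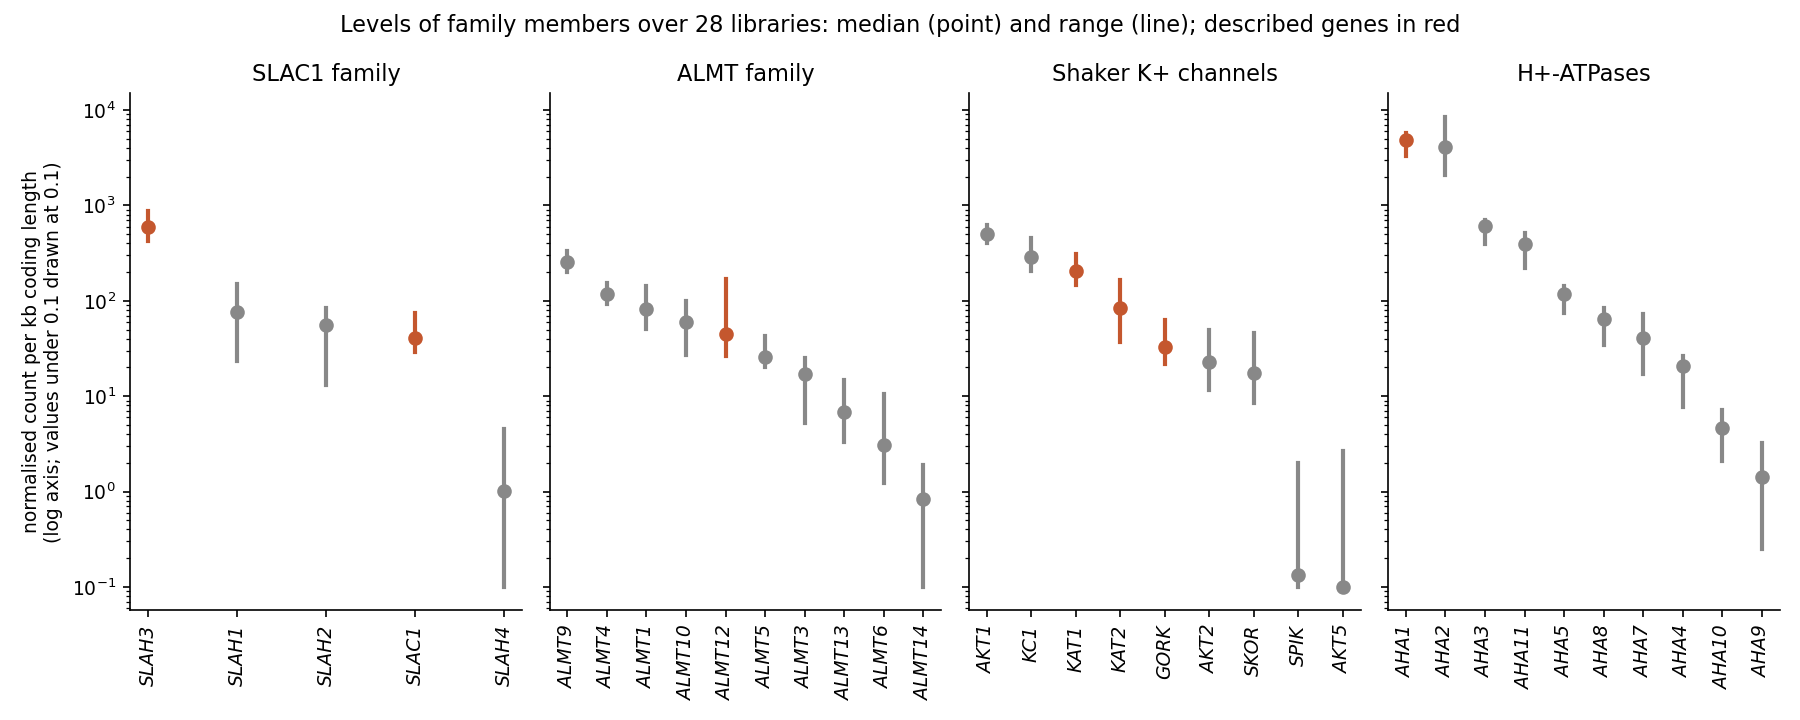
Level per kb of coding length (log axis) of the members and their family relatives, with the median over 28 libraries as a point and the range as a line, in order of median within each family. AHA1 (4906) and SLAH3 (588) lead their families, while SLAC1 (40.3), ALMT12 (45.1) and GORK (32.9) lie below several of their relatives.

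Other guard cell genes were read from further lists. Of 22 signalling genes, 7 rose and 3 fell in aba2-1 50 nM ABA against mock. OST1, the kinase that phosphorylates SLAC1, rose by 0.79 ± 0.123 on the log2 scale (SE, adjusted p 9.2e-05), to 416.1 ± 94.6 in aba2-1 50 nM ABA against 237.2 ± 16.2 in aba2-1 mock (SD, n = 3 each). The transcription factor gene MYB44 (0.68, adjusted p 0.0017) and the blue light receptor gene PHOT1 (0.61, adjusted p 0.0046) also rose. The 3 that fell, named after their values were seen, were the kinase genes MPK4 (-0.72, adjusted p 0.0081) and CPK3 (-0.38, adjusted p 0.014) and the NADPH oxidase gene RBOHD (-0.75, adjusted p 0.014). In Col-0 50 nM ABA against mock 2 of the 22 rose and 0 fell, where 1.01% of all genes were called in limma. The 2 were OST1 (0.58 ± 0.138, adjusted p 0.039) and RBOHD (1.05 ± 0.235, adjusted p 0.029). Replicates 1 and 2 of Col-0 50 nM ABA are libraries with raised MRD1.

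Of 17 stomatal lineage genes 3 rose and 1 fell in aba2-1 50 nM ABA against mock, a share near that of all genes, among them the transcription factor genes SCRM (0.42, adjusted p 0.008) and SCRM2 (0.51, adjusted p 0.032) and the receptor gene TMM (-0.62, adjusted p 0.034). Of 5 mature guard cell markers outside the 9 genes 0 rose and 1 fell, which was GC1, with 361.4 ± 250 in aba2-1 50 nM ABA and 850.5 ± 104 in aba2-1 mock (SD, n = 3 each) and an adjusted p of 0.0084. Of the markers of other cell types, 2 of 5 for epidermis rose, 1 of 5 for mesophyll fell, 1 of 8 for root rose and 1 of 4 for phloem rose, and all 7 ABA response genes rose. The median log2 difference was 0.18 over the 9 members, 0.20 over the signalling genes, 0.21 over the stomatal lineage genes and 4.07 over the ABA response genes, against 0.003 over all genes tested.

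The patterns of 5 members over the 10 group means were compared with every gene whose mean reached 5 CPM, a floor that leaves out SLAC1, ALMT12, GORK and HT1. The measures describe group means from the same libraries and carry no test. MYB60 was most like AT5G65590 (Pearson r 0.969), which RefSeq lists as SCAP1, a Dof transcription factor of maturing guard cells, then APL1 (0.967), a subunit gene of starch synthesis, and FAMA (0.96), the regulator of guard cell identity. Without PYL5 CA and Col-0 50 nM ABA, the groups farthest from the median of MYB60, the values were 0.913 with SCAP1, 0.921 with APL1 and 0.915 with FAMA. KAT1 was most like the auxin carrier gene PIN3 (0.957), LPA2 (0.948) and AT1G48770 (0.927). KAT2 was most like FRUCT5 (0.952), APR2 (0.949) and AT5G67200 (0.948). SLAH3 was most like TTL4 and AT5G36290 (0.918 each) and SRF7 (0.914), and AHA1 like AT5G12850 (0.984), UBA1 and AT2G46100 (0.982 each). Among the members themselves SLAC1 and ALMT12 had an r of 0.886, or 0.745 without the 2 groups farthest from the median, and KAT1 and MYB60 had 0.756.

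**Figure D5:**
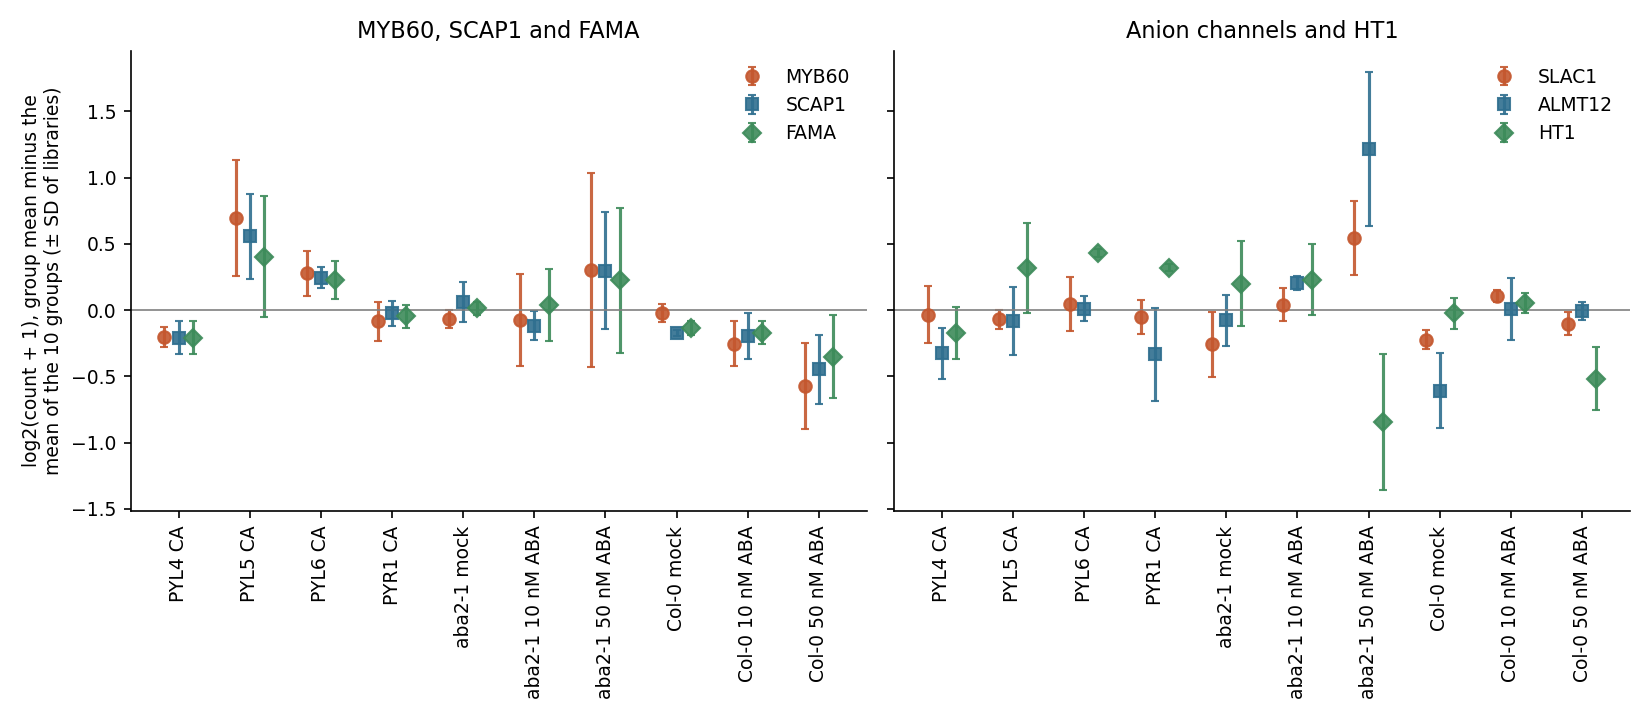
Group mean of log2(count + 1) minus the mean of the 10 groups (vertical axis), with the SD of the libraries as bars, for MYB60, SCAP1 and FAMA (left) and for SLAC1, ALMT12 and HT1 (right). MYB60, SCAP1 and FAMA are highest in PYL5 CA, at 0.70, 0.56 and 0.40, and lowest in Col-0 50 nM ABA, while in aba2-1 50 nM ABA SLAC1 and ALMT12 lie above 0 and HT1 lies below it.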

How the data were processed

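RNA of whole seedlings was sequenced in 28 libraries of 10 groups, assigned from the labels. The authors deposited 1 table of normalised read counts (a signal per locus and library). Per the submitters' processing notes the tools were Trimmomatic 0.38, Salmon 1.3.0 and edgeR 3.28.0 with TAIR10; their roles and order are not given in the sources used here. In every library 100% of values were whole multiples (tolerance 0.01) of the value of 1 read, so whole reads were recovered, with totals of 11.99 to 30.94 M reads. The 5 rows without a locus were left out of tests.

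Values were tested as log2(value + 1), so folds of low genes are understated, with limma 3.58.1 in R 4.3.3. All 28 libraries shared 1 model of the 10 groups, over 21023 genes with a value of at least 10 in at least 2 libraries. P-values were adjusted by Benjamini-Hochberg over those genes, with a threshold of 0.05. Count tests on the recovered reads (edgeR 4.0.16 and DESeq2 1.42.0) were alternatives, as were other pseudocounts (0.5 and 5), filters, scaling, models and leaving out libraries. For aba2-1 50 nM ABA against mock limma called 5210 genes, edgeR 5131 and DESeq2 5616. The limma procedure was also run on simulated data, in which a gene had the same spread in all groups. The wider spread of aba2-1 50 nM ABA and PYL5 CA was absent there, so it cannot decide how calls fare in those groups.

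Levels per kb use the coding length in RefSeq's TAIR10.1 annotation, and promoters are the 250 bases before the annotated start. Genes outside the 9 come from lists of relatives, guard cell genes and cell type markers (the 3 called genes with the smallest p in aba2-1 50 nM ABA against mock) or are the 3 most alike a member over the group means; other names were picked after their values were seen. A list of other guard cell transporters is not reported here. Members and lists were chosen with earlier results of these data known. Same-numbered libraries did not deviate together, so they were not paired. Nothing in the sources says that replicates are separate cultures, so p-values measure only the spread between libraries, which may be technical.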

Additional observations from a re-analysis of the deposited data

Results flagged for a closer look

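The row MCCA-NOS, which has no locus and was abundant only in the CA lines, held reads in 4 libraries of aba2-1 that carry no CA label, while the aba2-1 mock libraries were at 0. Its normalised read count was 139.9, 34.05 and 5.323 in aba2-1 50 nM ABA replicates 1, 2 and 3, and 5.925 in aba2-1 10 nM ABA replicate 2. The part of this in the values of the guard cell genes was not tested.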

How the results depend on the processing

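In limma 0 of the 9 genes were called in 15 of 18 comparisons and 4 in each of the others; no called difference changed sign under any alternative run. Other pseudocounts (0.5 and 5), a stricter filter and rescaling changed no call. The removals of the 3 libraries that stood apart and of the 3 Col-0 libraries with raised MRD1 were chosen after seeing the data.

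For aba2-1 50 nM ABA against mock, weighting each group's spread called 2 genes and a model of only these groups 0. Without the 3 libraries that stood apart, SLAC1, ALMT12 and HT1 kept their calls there, AHA1 lost its call and GORK was called. Against aba2-1 10 nM ABA, the calls numbered 2 without the filter, 2 in edgeR, 0 with weighting, 0 with only these groups and 0 without the 3 libraries. Against Col-0 50 nM ABA they numbered 1 with weighting, 0 with only these groups, 1 without the 3 libraries and 0 without the 3 Col-0 libraries. Leaving out each library in turn gave 3 to 5 calls for aba2-1 50 nM ABA against mock, 1 to 6 against aba2-1 10 nM ABA, 1 to 6 against Col-0 50 nM ABA and 0 to 4 for the difference between responses. It gave 0 in every other comparison.

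Where limma called 0, weighting called 1 for aba2-1 mock against Col-0 mock, 3 for Col-0 50 nM ABA against mock, 1 for PYL4 CA and 1 for PYR1 CA against aba2-1 mock, 2 for PYL4 CA, 1 for PYL6 CA and 3 for PYR1 CA against Col-0 mock, and 4 among the CA lines. The share of all genes called with weighting was 4.01%, 6.96%, 7.75%, 7.01%, 13.7%, 7.08%, 17.6% and 12.3% in that order. Only the groups compared gave 1 for Col-0 50 nM ABA, 1 for PYL4 CA against aba2-1 mock, 2 for PYL4 CA and 2 for PYR1 CA against Col-0 mock, and 1 among the CA lines, with 4.42%, 4.29%, 8.83%, 7.43% and 2.71% of all genes. DESeq2 gave 1 for Col-0 50 nM ABA, 1 for the difference between responses, 1 for PYL4 CA against Col-0 mock and 2 among the CA lines, with 2.16%, 4.68%, 3.33% and 8.74% of all genes, and edgeR gave 1 for the difference between responses, with 2.16%. Without the 3 libraries there was 1 call for Col-0 50 nM ABA, 3 for PYL5 CA and 1 for PYR1 CA against aba2-1 mock, 2 for PYL4 CA and 2 for PYL5 CA against Col-0 mock, and 2 among the CA lines, with 3.02%, 4.4%, 5.4%, 20.4% and 20.2% of all genes, apart from PYL5 CA against aba2-1 mock, where 4210 of 21023 genes were called. The cause of these shifts was not tested.

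Libraries with the same replicate number had correlated deviations between -0.225 and 0.14, so the numbers do not show a pairing. With the replicate block, 2 genes instead of 4 were called for aba2-1 50 nM ABA against aba2-1 10 nM ABA. In that comparison the block gave adjusted p of 0.056 for SLAC1 and 0.061 for AHA1, and KAT1 lost its call against Col-0 50 nM ABA (0.059).

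Over all genes, the count called in aba2-1 50 nM ABA against mock was 5210 and lay between 543, with only these groups, and 9272, without aba2-1 50 nM ABA replicate 3. For aba2-1 50 nM against 10 nM it was 2430 and lay between 6 and 8230 under the same 2 settings. For Col-0 50 nM ABA against mock it was 213 and lay between 6, without the 3 Col-0 libraries, and 1464, with weighting. For the difference between responses it was 431 and lay between 55, without the 3 Col-0 libraries, and 3338, without aba2-1 50 nM ABA replicate 3. For PYL5 CA against aba2-1 mock it was 33 and reached 4210 without the 3 libraries. Depth limits SLAC1, HT1, ALMT12, KAT2 and GORK most, whose lowest libraries held 16, 17, 20, 34 and 36 reads.

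Of 2610 member differences under alternatives 106 changed sign, all of them uncalled with and without the alternative and at most 0.32 (log2) in the reported fit, and the cause was not tested. Without the 3 Col-0 libraries, the differences became -0.014 for SLAH3 and -0.064 for AHA1 in Col-0 10 nM against Col-0 mock, -0.052 for SLAH3 in Col-0 50 nM against Col-0 mock, 0.23 for ALMT12 and 0.11 for MYB60 in Col-0 50 nM against Col-0 10 nM, and 0.082 for SLAH3 and 0.16 for KAT2 in the difference between responses. With the replicate block, the differences became -0.004 for HT1 in Col-0 10 nM against Col-0 mock. With rescaling, the differences became -0.008 for AHA1 in Col-0 10 nM against Col-0 mock, and 0.0 after rounding for ALMT12 in PYL5 CA against aba2-1 mock. In edgeR, the differences became -0.008 for AHA1 in Col-0 10 nM against Col-0 mock, -0.017 for HT1 and 0.005 for MYB60 in aba2-1 10 nM against aba2-1 mock, 0.096 for KAT2 and 0.006 for GORK in aba2-1 50 nM against aba2-1 10 nM, 0.001 for GORK in aba2-1 50 nM against Col-0 50 nM, 0.038 for KAT2 in the difference between responses, and 0.006 for ALMT12 in PYL5 CA against aba2-1 mock. In DESeq2, the differences became -0.025 for HT1 and 0.011 for MYB60 in aba2-1 10 nM against aba2-1 mock, 0.11 for KAT2 and 0.030 for GORK in aba2-1 50 nM against aba2-1 10 nM, 0.011 for GORK in aba2-1 50 nM against Col-0 50 nM, 0.052 for KAT2 in the difference between responses, and 0.002 for ALMT12 in PYL5 CA against aba2-1 mock. Without the 3 libraries that stood apart, the differences became -0.095 for HT1 in aba2-1 10 nM against aba2-1 mock, -0.055 for KAT1 in aba2-1 50 nM against aba2-1 mock, 0.49 for GORK in aba2-1 50 nM against aba2-1 10 nM, -0.013 for SLAH3 and 0.18 for GORK in aba2-1 50 nM against Col-0 50 nM, 0.081 for SLAH3, 0.12 for ALMT12 and -0.019 for HT1 in PYL5 CA against aba2-1 mock, and 0.007 for KAT1 in PYL5 CA against Col-0 mock. With a pseudocount of 5, the differences became 0.002 for KAT2 in aba2-1 50 nM against aba2-1 10 nM.

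The other 71 sign changes came from leaving out 1 library at a time. In aba2-1 mock against Col-0 mock they ran from -0.16 to 0.080 for SLAC1, -0.068 to 0.25 for SLAH3, -0.095 to 0.004 for MYB60 and -0.049 to 0.10 for AHA1. In Col-0 10 nM against Col-0 mock they ran from -0.040 to 0.28 for SLAH3, -0.007 to 0.16 for HT1 and -0.068 to 0.070 for AHA1. In Col-0 50 nM against Col-0 mock they ran from -0.054 to 0.26 for SLAH3. In aba2-1 10 nM against aba2-1 mock they ran from -0.14 to 0.009 for KAT1, -0.14 to 0.18 for HT1, -0.14 to 0.19 for MYB60 and -0.082 to 0.095 for AHA1. In aba2-1 50 nM against aba2-1 mock they ran from -0.056 to 0.12 for SLAH3, -0.055 to 0.38 for KAT1 and -0.61 to 0.16 for KAT2. In aba2-1 50 nM against aba2-1 10 nM they ran from -0.007 to 0.42 for KAT1, -0.36 to 0.41 for KAT2 and -0.30 to 0.26 for GORK. In Col-0 50 nM against Col-0 10 nM they ran from -0.15 to 0.12 for SLAH3 and -0.18 to 0.15 for ALMT12. In aba2-1 50 nM against Col-0 50 nM they ran from -0.063 to 0.11 for SLAH3, -0.61 to 0.16 for KAT2 and -0.24 to 0.18 for GORK. In the difference between responses they ran from -0.23 to 0.084 for SLAH3 and -0.37 to 0.40 for KAT2. In PYL5 CA against aba2-1 mock they ran from -0.10 to 0.081 for SLAH3, -0.13 to 0.12 for ALMT12 and -0.049 to 0.31 for HT1. In PYL6 CA against aba2-1 mock they ran from -0.055 to 0.068 for AHA1. In PYR1 CA against aba2-1 mock they ran from -0.035 to 0.12 for KAT1, -0.048 to 0.27 for HT1 and -0.079 to 0.064 for MYB60. In PYL4 CA against Col-0 mock they ran from -0.11 to 0.24 for KAT2. In PYL5 CA against Col-0 mock they ran from -0.084 to 0.23 for SLAH3 and -0.21 to 0.007 for KAT1. In PYL6 CA against Col-0 mock they ran from -0.19 to 0.013 for KAT1, -0.099 to 0.18 for KAT2 and -0.050 to 0.088 for AHA1. In PYR1 CA against Col-0 mock they ran from -0.12 to 0.018 for MYB60.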
